A study of Mus musculus with 8 samples.

Results

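The iron-handling set held 10 genes of the mouse liver transcriptome, of 25010 genes in the deposited table, and all 10 were taken by gene symbol. They were the 2 hepcidin genes Hamp and Hamp2, the transferrin receptors Tfrc and Tfr2, the iron exporter Slc40a1, the ferritin subunits Fth1 and Ftl1, the hepcidin regulators Hfe and Tmprss6, and the iron importer Slc39a14. RNA-Seq of the left lobe of the liver was performed on 2 WT mice and 2 LXRDKO mice, with 1 library per mouse. LXRDKO mice lack both liver X receptors, LXRα (gene Nr1h3) and LXRβ (gene Nr1h2), in the whole body, so that any change in the liver may begin in the liver or elsewhere. All 4 mice were 8 wk old, on the C57BL/6 background, and had gone without food for 4 to 6 h. The comparison asked which transcripts of liver differ when both LXRs are absent.

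Hepcidin, the product of Hamp, is a peptide hormone that hepatocytes secrete. It binds ferroportin, the product of Slc40a1 and the known exporter of iron from cells, and thereby holds iron inside macrophages, enterocytes and hepatocytes. Hepatocytes raise Hamp transcription when BMP ligands of the sinusoidal endothelium activate SMAD proteins, and when IL-6 activates STAT3 in inflammation. Iron also acts on transcripts by way of iron regulatory proteins. These proteins bind hairpins called iron-responsive elements (IREs). Their binding blocks translation where the IRE lies in a 5′ UTR and stabilizes the transcript where the IREs lie in the 3′ UTR of Tfrc. Mice carry a second hepcidin gene, Hamp2, whose role in iron balance is not established.

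The 2 hepcidin genes lie on the minus strand of chromosome 7, Hamp2 at chr7:30922372-30924681 and Hamp at chr7:30942368-30944032 of GRCm38, with 17.7 kb between them. Both lie within the same noncoding gene, Gm44662, which runs on the opposite strand.

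The sequences upstream of the RefSeq starts of the 2 genes are shown because the genes gave unlike fold changes while these sequences are alike. Each is the RefSeq window of 250 bases before the transcript start, on the minus strand of GRCm38.p6. The windows are chr7:30944030-30944279 for Hamp and chr7:30924182-30924431 for Hamp2. The Hamp2 window lies within the Hamp2 gene as placed above, which starts further upstream, at chr7:30924681. Distances in this paragraph are from the RefSeq starts. Over 253 aligned columns, 6 of them gaps, 89.7% were identical. Capitals mark the STAT site motif TTCNNNGAA, and the hexamer GGCGCC, known as the core of the BMP response element, with the aligned bases of Hamp2. Hamp carried GGCGCC 109 bases before its start, and Hamp2 carried GGCACC in the aligned place, 106 bases before its own. Both windows held TTCTTGGAA, 97 bases before the start of Hamp and 94 before that of Hamp2.
Hamp: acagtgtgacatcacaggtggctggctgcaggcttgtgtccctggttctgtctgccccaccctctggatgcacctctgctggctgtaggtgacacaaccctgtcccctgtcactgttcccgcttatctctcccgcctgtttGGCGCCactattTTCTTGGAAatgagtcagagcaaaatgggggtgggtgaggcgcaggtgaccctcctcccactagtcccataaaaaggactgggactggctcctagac
Hamp2: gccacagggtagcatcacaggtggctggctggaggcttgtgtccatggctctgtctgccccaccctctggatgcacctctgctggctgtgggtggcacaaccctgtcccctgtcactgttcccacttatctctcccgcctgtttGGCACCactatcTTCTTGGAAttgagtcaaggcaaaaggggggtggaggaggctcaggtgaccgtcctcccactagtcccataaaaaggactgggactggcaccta

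Of 32851 RefSeq promoter windows of this length, searched on both strands, 9.59% held GGCGCC and 7.02% held TTCNNNGAA. The E-box CACGTG was in 6.02% of them, and the DR4 element to which LXR binds with its partner RXR, taken as 2 copies of AGGTCA with NNNN between them, was in 0.0152%. RefSeq windows were found for 7 of the 10 genes, 11 windows in all, and those of Slc40a1, Tmprss6 and Slc39a14 were not used here. None of the 11 held CACGTG or the DR4 element. An exact DR4 element is too rare for its absence from 11 windows to tell anything. The authors state that many important LXR elements are imperfect DR4 repeats, which this search would miss. Besides Hamp, Tfrc held GGCGCC in 1 of 2 windows, 89 bases before the start. These are matches of letters in a short window and say nothing of binding.

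Matches to the IRE were looked for in the whole sequences of protein-coding transcripts, since they split the genes by how iron acts on them. The pattern was the loop CAGTGN without G in its last place, shown in capitals. Around it lay a paired stem, with a bulged C before the stem. The pattern occurred in 222 of 21901 protein-coding genes (1.01%) and in 4 of the 10 genes here. Each match is given with flanking bases that were not checked for pairing, 27 bases in all. Tfrc had 4 matches in its 3′ UTR, on the plus strand of GRCm38 at chr16:32631220-32631246, chr16:32631599-32631625, chr16:32631664-32631690 and chr16:32631711-32631737, given here in that order. Slc40a1 had 1 match in its 5′ UTR, at chr1:45925466-45925492 on the minus strand. The ferritin subunits also had 1 each in the 5′ UTR, Fth1 at chr19:9982733-9982759 on the plus strand and Ftl1 at chr7:45459780-45459806 on the minus strand.
Tfrc: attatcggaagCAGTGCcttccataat
Tfrc: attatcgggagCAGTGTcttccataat
Tfrc: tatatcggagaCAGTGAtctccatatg
Tfrc: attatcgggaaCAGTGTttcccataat
Slc40a1: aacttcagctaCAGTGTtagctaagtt
Fth1: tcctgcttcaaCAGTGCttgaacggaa
Ftl1: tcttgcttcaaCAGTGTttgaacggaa

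The libraries held from 55772659 to 72842744 reads on genes. The values below are normalized counts, that is, reads divided by 1 size factor per library, and fold changes are differences of log2(normalized count + 1), LXRDKO minus WT. They were tested with limma over 15578 genes, and a gene was called at an adjusted P value below 0.05. Both deleted genes were lower in the LXRDKO livers, Nr1h3 with a log2 fold change of −1.65 and Nr1h2 with −1.66 (adjusted P = 0.0147 for each, limma). Transcripts of both were still counted, Nr1h3 at 1712 and 1826 normalized counts and Nr1h2 at 925 and 1003. P values rest on the spread between these mice, which limma moderates with a trend over all genes tested. An exact permutation test of 2 livers against 2 cannot give a P value under 0.33.

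Of the 10 genes, Hamp2 was the only one called, and it fell. Hamp2 was called among 50 genes of 15578 (0.321%), of which 29 fell (0.186%). The median log2 fold change of the 10 genes was −0.03, against −0.0046 for all genes tested, with 5 genes above 0 and 5 below. The median size of the change, without its sign, was 0.179 in the 10 genes and 0.173 in all genes. At an unadjusted P value below 0.05, 3 of the 10 differed (Hamp2, Tfrc and Slc39a14), where 13.3% of all genes did. The LXRDKO livers lay both above the WT livers for 4 genes, beside 21.7% of all genes tested, and both below for 3, beside 23% of all, so that 7 of 10 did not overlap, beside 44.7% of all. DESeq2, which was run on the recovered reads, called Hamp2 lower and Tfrc higher. It called 3.59% of the genes it tested, 1.56% higher and 2.03% lower, and edgeR called Hamp2 alone of the 10 beside 0.315% of all genes.

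**Figure D1:**
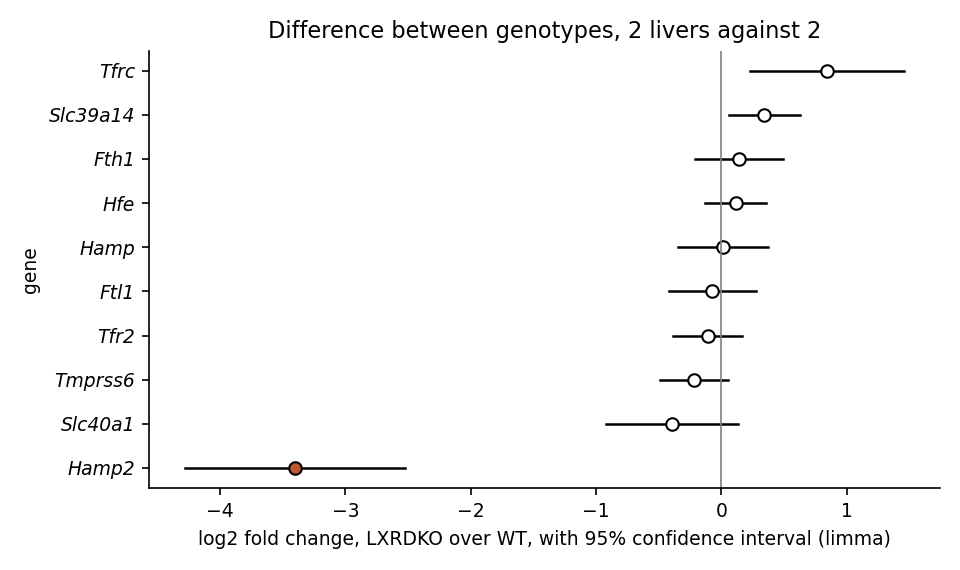
Log2 fold change of each of the 10 iron-handling genes, LXRDKO over WT, as points on the horizontal axis, with the 95% confidence interval of limma as lines. The filled point marks the 1 gene with an adjusted P value below 0.05, Hamp2 at −3.40, and only the intervals of Hamp2, Tfrc and Slc39a14 leave out 0.

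Hamp2 had 1231 and 2474 normalized counts in WT against 194 and 139 in LXRDKO. Both LXRDKO livers lay far below both WT livers, and the lower WT liver held 6.36 times the level of the higher LXRDKO liver. The means were 1852 ± 879 (SD, n = 2) in WT and 166 ± 38.4 (SD, n = 2) in LXRDKO, an 11.1-fold difference. The log2 fold change of Hamp2 was −3.40 (standard error 0.35, 95% confidence interval −4.28 to −2.53, adjusted P = 0.0432, limma). The reads behind these values were 1079 and 2915 in WT against 204 and 130 in LXRDKO. By size of its fall Hamp2 ranked 15th of all genes tested, and 5th among the 29 that were called lower. DESeq2 gave −3.48 with an adjusted P of 9.02e-24, and edgeR gave an adjusted P of 0.0491. The adjusted P value of limma lay between 0.057 and 0.219 in 5 of 15 alternative settings, among them those without either LXRDKO liver, whereas the fold change stayed between −3.91 and −2.90. In RNA of whole tissue, fewer cells of a type and less RNA per cell cannot be told apart.

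Hamp, the main hepcidin gene, had 28958 and 35925 normalized counts in WT against 34512 and 30676 in LXRDKO. The values of the 2 genotypes were interleaved, with the lowest and the highest both in WT. Means were 32442 ± 4927 (SD, n = 2) and 32594 ± 2713 (SD, n = 2). The log2 fold change of Hamp was 0.01 (95% confidence interval −0.35 to 0.37, adjusted P = 0.983, limma), and its sign turned with single livers left out, between −0.14 and 0.17.

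The split between the hepcidin genes was therefore read within each liver. Hamp2 made up 4.08% and 6.44% of the counts of the 2 hepcidin genes in WT, and 0.558% and 0.452% in LXRDKO. Hamp counts exceeded Hamp2 counts 23.5-fold and 14.5-fold in WT, and 178-fold and 220-fold in LXRDKO. The log2 ratio of Hamp2 to Hamp was −4.21 ± 0.49 (SD, n = 2) in WT and −7.62 ± 0.21 (SD, n = 2) in LXRDKO, a difference of −3.41. Since the log2 fold change of Hamp was 0.01, this restates the fall of Hamp2 and is no separate evidence. The groups did not overlap, and the two-sided exact permutation P value of 0.33 is the smallest that 2 livers against 2 allow. The sum of both genes, of which Hamp2 was the minor part, was 30189 and 38399 normalized counts in WT against 34706 and 30815 in LXRDKO.

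Reads of 50 bases can tell the 2 transcripts apart over most of their length. Of 534 windows of 50 bases in Hamp2, 88.8% occurred nowhere else among the transcripts or the genome, and 60 were shared with Hamp. In Hamp, 16.6% of 361 windows were shared, and all of these were shared with Hamp2. How the authors treated reads that match both places is not given in the sources used here. With the counts of both genes summed into 1 gene, the log2 fold change was −0.06.

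Levels were compared between genes per kb of exon. In WT, Hamp was highest with a mean of 79126 normalized counts per kb (SD 12016), followed by Fth1 with 55288 (SD 524). Ftl1 followed at 14863, Tmprss6 at 11325 and Tfr2 at 9846, and the 2 livers of each gene did not overlap with those of its neighbours in this order. The level of Ftl1, and so its place, is uncertain, since 76.3% of its windows of 50 bases occurred elsewhere. How reads that match several places were treated is not given in the sources used here. Slc39a14 at 3423, Slc40a1 at 3280 and Hamp2 at 3177 normalized counts per kb could not be ordered, since their livers overlapped. Hfe had 662 and Tfrc had 169 normalized counts per kb. In LXRDKO livers Hamp2, at 286 (SD 65.8), overlapped with Tfrc, the other low gene, at 304 (SD 81.8). The exon length of Hamp2 includes 146 bases of a first exon of 1 of 3 annotated transcripts, and without it Hamp2 had 4239 normalized counts per kb in WT and 381 in LXRDKO, above the means of Slc39a14 and of Tfrc respectively, so that its place in the order depends on this length.

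**Figure D2:**
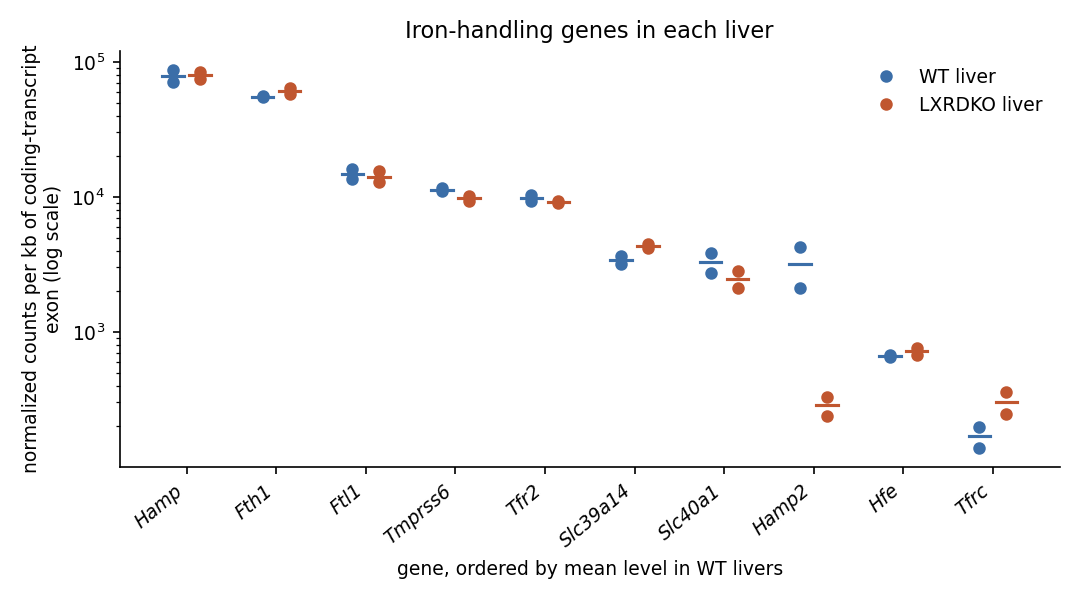
Normalized counts per kb of exon on a log scale for the 10 genes, ordered by their mean in WT, with 1 point per liver and a bar at each mean. Hamp2 is at 3177 in WT and 286 in LXRDKO on this scale, and its place among the lower genes depends on the exon length used, while Hamp is at 79126 in WT and 79498 in LXRDKO.

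Tfrc, at chr16:32608920-32632794 on the plus strand of GRCm38, the build of all gene positions given here, encodes the main transferrin receptor, through which cells take up transferrin-bound iron, and it carries the 3′ UTR hairpins shown above. It had 736 and 1055 normalized counts in WT against 1303 and 1917 in LXRDKO. Each LXRDKO liver was above each WT liver, but the livers of one genotype differed 1.43-fold in WT and 1.47-fold in LXRDKO. The ratio of the means was 1.80, with a log2 fold change of 0.84 (95% confidence interval 0.23 to 1.45, unadjusted P = 0.0156, adjusted P = 0.254, limma). DESeq2 called Tfrc (adjusted P = 0.0284), and no other setting of 15 did, edgeR included (adjusted P = 0.257).

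The 3 genes with a hairpin in the 5′ UTR were not called by limma or DESeq2, and translation, at which those hairpins act, was not measured. Slc40a1 (chr1:45908068-45926523, minus strand), the exporter ferroportin, had 9404 and 13334 normalized counts in WT against 9856 and 7359 in LXRDKO, so that the groups overlapped. Its log2 fold change was −0.39 (95% confidence interval −0.92 to 0.13, adjusted P = 0.504, limma). Fth1 (chr19:9980598-9985098, plus strand), the heavy subunit of the iron store ferritin, had 88856 and 90054 in WT against 104172 and 93103 in LXRDKO. Both LXRDKO livers were above WT, by a log2 fold change of 0.14 (95% confidence interval −0.21 to 0.49, adjusted P = 0.745, limma). Ftl1 (chr7:45457944-45459884, minus strand), the light subunit, had 13132 and 15643 in WT against 14989 and 12399.5 in LXRDKO, with overlap. The Ftl1 log2 fold change was −0.07 (95% confidence interval −0.42 to 0.28, adjusted P = 0.886, limma). Ftl1 is the least certain of the 10, since 76.3% of its windows of 50 bases occurred elsewhere in the genome or its transcripts, 675 of 968 in the copy Ftl1-ps1.

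None of the regulators of hepcidin on the hepatocyte surface was called by limma or DESeq2. Hfe (chr13:23702034-23710854, minus strand), whose loss causes hereditary hemochromatosis, had 2333 and 2396 normalized counts in WT against 2429 and 2692 in LXRDKO. The difference on the log2 scale was 0.11 (95% confidence interval −0.13 to 0.35, adjusted P = 0.690, limma). Tfr2 (chr5:137569840-137587481, plus strand), the transferrin receptor that signals to hepcidin, had 36294 and 32649 in WT against 32460.3 and 31283 in LXRDKO. Although the LXRDKO livers were both lower, the nearest pair differed by a factor of only 1.01, and the log2 fold change was −0.11 (95% confidence interval −0.39 to 0.17, adjusted P = 0.741, limma). Tmprss6 (chr15:78439667-78468634, minus strand), the protease that cleaves hemojuvelin and so lowers hepcidin, had 36993.5 and 35303 in WT against 32388 and 29779 in LXRDKO. Both LXRDKO livers lay below WT, at a log2 fold change of −0.22 (95% confidence interval −0.49 to 0.05, adjusted P = 0.467, limma).

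Slc39a14 (chr14:70303469-70351425, minus strand), which encodes ZIP14, a transporter that brings iron not bound to transferrin into hepatocytes, had 20533 and 17740 normalized counts in WT against 23508.5 and 24865.5 in LXRDKO. Both LXRDKO livers were higher, and the livers of one genotype differed 1.16-fold in WT and 1.06-fold in LXRDKO. The log2 fold change of Slc39a14 was 0.34 (95% confidence interval 0.06 to 0.63, unadjusted P = 0.0263, adjusted P = 0.306, limma; adjusted P = 0.236, DESeq2).

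Genes on either side of the hepcidins were examined next, in part because Nr1h2 lies on the same chromosome, 13.6 Mb from both. Between Hamp and Nr1h2, limma tested 91 genes and called 1, lower, beside 0.186% of all genes called lower. DESeq2 called 6 there, all lower, beside 2.03% of all genes it tested. Within 1 Mb of Nr1h2, limma tested 69 other genes and called 1, lower, and DESeq2 called 4 lower and 1 higher. Of 17 other genes annotated within 100 kb of Hamp or Hamp2, 9 were tested and none was called by limma. An unadjusted P value below 0.05 was found for 2 of these 9, beside 13.3% of all genes. DESeq2 called Lsr, the lipolysis-stimulated lipoprotein receptor, at 12135 and 12197 normalized counts in WT against 9429 and 9144 in LXRDKO (log2 fold change −0.39, adjusted P = 0.0494, DESeq2; adjusted P = 0.161, limma). Usf2, the gene next to Hamp, encodes a factor that binds the E-box. It had 3690 and 3540 in WT against 3326 and 2589 in LXRDKO (log2 fold change −0.30, adjusted P = 0.423, limma). Gm44662, the noncoding gene over both hepcidin genes, had 12.5 and 23.8 in WT against 13.3 and 6.43 in LXRDKO, so that it held few reads beside Hamp2. Ftl1 lies closer to Nr1h2, at 0.904 Mb.

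**Figure D3:**
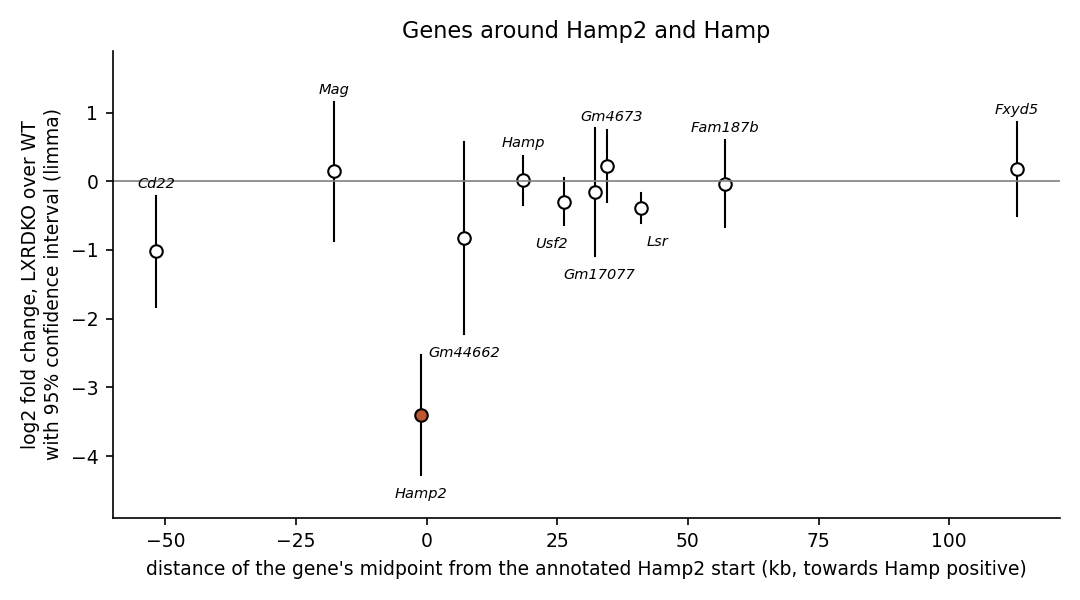
Log2 fold change, LXRDKO over WT, with the 95% confidence interval of limma, for the tested genes within 100 kb of Hamp or Hamp2. The horizontal axis is the distance in kb of each gene's midpoint from chr7:30924681, the annotated start of the Hamp2 gene. The filled point is Hamp2 at −3.40, and Hamp at 0.01 and the other 9 genes, drawn open, were not called by limma.

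The BMP-SMAD pathway that drives hepcidin was represented by 19 listed genes, of which 18 were tested and none was called by limma or DESeq2. Of the 18, 12 had a log2 fold change below 0 and 6 above, with a median of −0.09. An unadjusted P value below 0.05 was found for 2 of them, beside 13.3% of all genes. Both LXRDKO livers were lower for 9 of them, where 23% of all genes were, and both higher for 0, where 21.7% of all genes were. Bmp6, the ligand that iron induces in the endothelium, had 259 and 313 normalized counts in WT against 227 and 198 in LXRDKO (log2 fold change −0.42, adjusted P = 0.410, limma). Bmp2, its partner ligand, had 836 and 616 in WT against 491 and 445 in LXRDKO (log2 fold change −0.62, adjusted P = 0.257, limma). Hjv, the BMP coreceptor hemojuvelin, had 5847 and 5609 in WT against 4762 and 5036 in LXRDKO (log2 fold change −0.23, adjusted P = 0.360, limma). The target genes that report SMAD activity overlapped between genotypes. Id1 had 420 and 847 in WT against 455 and 492 in LXRDKO, and Smad7 had 866 and 1111 in WT against 1123 and 957 in LXRDKO.

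In the list of IL-6, STAT3 and acute-phase genes, 15 were tested, 9 lay above 0 and 6 below, and the median log2 fold change was 0.30. Both LXRDKO livers were higher for 7 of them, beside 21.7% of all genes tested, and lower for 5, beside 23% of all. The lower ones included genes of the signalling path, Il6st, the shared receptor chain (log2 fold change −0.24), the kinase gene Jak2 (−0.40) and Stat3 (−0.18). The higher ones included Il6ra, the IL-6 receptor gene (log2 fold change 0.76), and Socs3 (0.64), so that the path did not move in 1 direction. None of these genes was called by limma or DESeq2. Orm2, an acute-phase plasma glycoprotein, rose from 584 and 654 normalized counts to 1495 and 1286 (log2 fold change 1.16, adjusted P = 0.0498, limma). It was the only gene of this list that limma called, where 0.135% of all genes were called higher. DESeq2 called 3, Orm2, Lcn2 and Hp, all higher in LXRDKO, beside 1.56% of all genes it tested. Lcn2, a lipocalin that binds iron-carrying siderophores, had 265 and 609 in WT against 1490 and 2664 in LXRDKO (log2 fold change 2.31, adjusted P = 0.134, limma; adjusted P = 0.0385, DESeq2). Hp, haptoglobin, which binds free hemoglobin, had 173828 and 158434 in WT against 220866 and 242564 in LXRDKO (log2 fold change 0.48, adjusted P = 0.344, limma; adjusted P = 0.016, DESeq2).

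Other genes of iron transport and of haem metabolism gave 0 calls by limma and 0 by DESeq2. Of 21 iron transport genes tested, 15 lay below 0 and 6 above, the median log2 fold change was −0.14, and 5 had an unadjusted P value below 0.05, which 13.3% of all genes had. Trf, the plasma carrier transferrin, had 6910 and 7900 normalized counts in WT against 8304 and 6362 in LXRDKO (log2 fold change −0.02). For haem synthesis, transport and breakdown, 20 genes were tested, with 14 above 0, 6 below, their median log2 fold change at 0.03 and 1 unadjusted P value below 0.05. Hmox1, the haem oxygenase that frees iron from haem, had 1062 and 2334 in WT against 1753 and 1591 in LXRDKO (log2 fold change 0.08). Taking the BMP-SMAD, transport and haem lists as one, 59 genes were tested, the median was −0.02 and 8 had an unadjusted P value below 0.05, a share close to that of all genes.

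**Figure D4:**
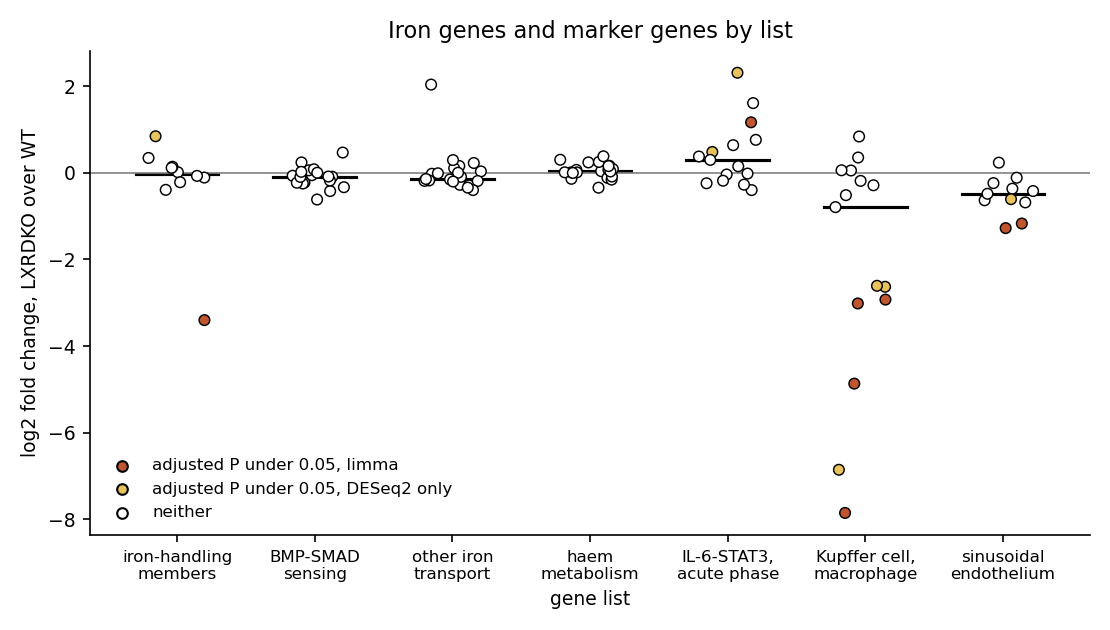
Log2 fold change, LXRDKO over WT, of each tested gene in 7 lists, with 1 point per gene, spread sideways for legibility, and a bar at each median. Filled points mark adjusted P values below 0.05 by limma or by DESeq2 alone. Hamp2 is at −3.40, the Kupffer cell and macrophage list spans −7.85 to 0.84, and none of the 59 points in the BMP-SMAD, transport and haem lists is filled.

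Most markers of Kupffer cells and of sinusoidal endothelium had a log2 fold change below 0. In the Kupffer cell and macrophage list, 15 genes were tested, 11 lay below 0 and the median log2 fold change was −0.79. Limma called 4, all lower (Clec4f, Cd5l, Marco and Cd163), where it called 0.186% of all genes lower. DESeq2 called 7, all lower, beside 2.03% of all genes it tested. The summed level of the 15 was 17474 and 19352 normalized counts in WT against 12470 and 7444 in LXRDKO. A large part of this difference lay in Clec4f, with means of 3339 in WT and 454 in LXRDKO, and Cd5l, with 3036 and 12.1. Cd163, the haptoglobin-hemoglobin receptor by which macrophages recover haem iron, fell from 939 and 524 to 27.5 and 19.3 (log2 fold change −4.87, adjusted P = 0.0239, limma). Timd4, a defining marker of resident Kupffer cells, was at 266 and 288 in WT and at 4.75 and 0 in LXRDKO. Over the 15 genes, both LXRDKO livers were lower for 8, beside 23% of all genes tested. Both were higher for 1 (Spic), beside 21.7% of all, and the groups overlapped for 6. Among those 6 were Csf1r, C1qb and Cd68, with log2 fold changes of 0.05, 0.06 and 0.35. With Spic they were the 4 genes of the list above 0. Slc40a1, which macrophages also express, did not pass the test beside the markers of this list. In the sinusoidal endothelium, the known source of BMP ligands, 10 of 11 markers lay below 0 at a median log2 fold change of −0.49. Of these markers limma called 2 and DESeq2 called 3, all lower, beside 0.186% and 2.03% of all genes. Cdh5 and Kdr, genes of endothelial junctions and growth factor sensing, fell with log2 fold changes of −1.28 and −1.17 (adjusted P = 0.0255 and 0.0498, limma), and the summed level of the list was 20228 and 18543 in WT against 15660 and 12087 in LXRDKO. The part of either cell type in the difference of Hamp2 was not tested.

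The genes whose pattern over the 4 livers was most like that of Hamp2 were Adam11, Marco, Gm32468, Gbp2b and Grm8. Likeness was the root mean square difference of log2 values centred per gene, which was 0.212 for Adam11 and 0.413 for Grm8. Adam11 had 757 and 1467 normalized counts in WT against 109 and 115 in LXRDKO, and Marco, a scavenger receptor on the macrophage list, had 275 and 491 in WT against 47.5 and 41.8 in LXRDKO. All 5 had both LXRDKO livers below both WT livers, a pattern for which they were picked and which 23% of all genes tested had. The ranking rests on 4 livers.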

How the data were processed

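Polyadenylated RNA was captured (KAPA Stranded kit) and read from one end over 50 bp, and the authors used STAR on mm10 (2.6.0c in the submitters' processing notes). The deposited values are a normalized signal, which the authors made with DESeq2 by dividing read counts by a size factor per library. All values (100%) were whole multiples of 1 read within a tolerance of 0.02, so reads were recovered for DESeq2 1.42.0 and edgeR 4.0.16, run as alternatives. The counting tool, its use of strand and its annotation are not given in the sources used here. Log2(normalized count + 1) was tested with limma 3.58.1 in R 4.3.3 and its trend option where the mean over the livers reached 10 normalized counts, with Benjamini-Hochberg adjustment over all of them, and the script was tested on simulated data. Of the gene identifiers, 24987 matched GENCODE M21 and 23 did not, and the gene Ahsp of the blood list was not matched. The genes and the lists (BMP-SMAD, IL-6-STAT3, iron transport, haem, Kupffer cell, endothelium, blood, hepatocyte) were chosen with earlier results of these data known. Named are all 10 genes, called members of the lists, Bmp6, Id1, Smad7, Trf, Hjv, Hmox1 and Cd163 for their role, the 5 genes most like Hamp2 (those most like Hamp are not reported here), and genes within 100 kb of the hepcidins. Bmp2, Il6st, Il6ra, Jak2, Stat3, Socs3, Spic, Csf1r, C1qb, Cd68 and Scara5 were named after their values were seen. Hjv is listed as Hfe2 in the table. Replicate numbers only name the mice. Chromatin accessibility was not analysed here.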

Additional observations from a re-analysis of the deposited data

How the results depend on the processing

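Fold changes of 8 of the 10 genes kept their sign under every alternative run. Hamp turned to −0.14 without WT replicate 1, to −0.072 without LXRDKO replicate 1 and to −0.058 when summed with Hamp2, and ranged from −0.14 to 0.17 with a liver left out. Ftl1 turned to 0.054 without WT replicate 2 and to 0.065 without LXRDKO replicate 2, within a range from −0.21 to 0.065. Limma called 50 genes, 25 where the mean had to reach 50 normalized counts, 1 without the trend and from 2 to 265 with 1 liver left out (without LXRDKO replicate 1 it called 2, without LXRDKO replicate 2 it called 4, without WT replicate 1 it called 265 and without WT replicate 2 it called 157), and DESeq2 called 567. Of the 10 genes, 1 was called, 0 at that filter, 0 without the trend, 0 with robust moderation, 2 by DESeq2 and from 0 to 1 with a liver left out. The adjusted P of Hamp2 by limma was 0.057 at the higher filter, 0.219 without the trend, 0.0616 with robust moderation, 0.175 and 0.207 when LXRDKO replicate 1 or 2 was left out. The higher filter held fewer genes and the runs without a liver held fewer livers. The runs without the trend and with robust moderation used the same genes and livers as the main one. The cause of the higher adjusted P values was not tested. The median log2 fold change of the 10 genes ranged from −0.11 to 0.093 with a liver left out. With the replicate number as a block limma called 90 genes, among them Hamp2 (adjusted P = 0.0363), but same-numbered livers did not deviate together (correlation 0.00312), so the samples share only a number and no pairing was used. The lowest count of any of the 10 genes in a liver was 130 reads, for Hamp2 in LXRDKO, and counts this high leave little counting error.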

Other observations

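Scara5, a receptor that takes up ferritin, was picked out of the iron transport genes after its values were seen. Normalized counts were 1598 and 446 in WT against 3168 and 3789 in LXRDKO. Both LXRDKO livers were higher, but the WT livers lay far apart, and the log2 fold change of 2.03 (95% confidence interval 0.65 to 3.42) was not called (adjusted P = 0.235, limma; adjusted P = 0.339, DESeq2).

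Blood and hepatocyte markers bear on how much of each library came from other sources. Of 9 red cell genes 6 were tested, none was called, the median log2 fold change was 0.30, and their summed level was 1019 and 2268 normalized counts in WT against 1715 and 1730 in LXRDKO, the lowest and the highest both in WT. All 5 hepatocyte markers were tested, none was called, and the median log2 fold change was −0.07.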
